A study of Mus musculus with 64 samples.

Results

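The effect of a mutant cardiac troponin T transgene on gene expression was examined in the hearts of exercise-trained male mice. The 16 libraries were those whose labels combine a genotype of TG or nTG with HIIT and M. There were 8 TG and 8 nTG libraries, out of 64 in the whole series. TG mice carried the transgene cTnT-delta160E, a cardiac troponin T lacking a glutamate residue, in a model of hypertrophic cardiomyopathy. nTG mice were their non-transgenic counterparts. All were C57BL/6J males that had run on a treadmill for 6 weeks of high-intensity interval training (HIIT). Sessions of 31 minutes were held on 3 days per week, and each had 4 intervals at 85% and 4 at 50% of the average speed that the group reached in a graded exercise test. The nTG mice were trained under the same protocol, so both groups carry the effects of training, and any difference in how TG hearts respond to it is part of the comparison. Ages, and the promoter that drives the transgene, were not given in the sources used here. Each library is labelled as a biological replicate of heart RNA, and replicate numbers below follow those labels.

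Cardiac troponin T anchors the troponin complex to tropomyosin on the thin filament, where calcium binding to troponin C releases the brake on contraction. Thin-filament mutations of hypertrophic cardiomyopathy commonly raise the calcium sensitivity and the energy cost of contraction, and the diseased heart is known for fibrosis, altered ion currents, lowered fatty acid oxidation and a return of fetal genes. Interval training is itself a stimulus for mitochondrial and physiological growth of the heart.

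Deposited gene columns did not carry the names of the libraries they hold. Gene columns were therefore assigned by correlation with a second deposited table, of long noncoding RNAs, whose column names were taken as given. Over 389 autosomal transcripts held by both tables, all 64 columns paired off as best matches in both directions. For the 16 libraries the best correlation was 0.599 to 0.840, and the next best was at most 0.311. Of the 16 libraries, 0 received the gene column bearing their own name, and 2 received a column named for their own group. After the match, 0 of 64 libraries contradicted their labelled sex or genotype. Without it, 8 of the 16 contradicted their sex and 10 their genotype. Gene totals were 42190886 to 57947174 counts in TG and 43386701 to 56313635 in nTG.

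TG replicate 4 stood apart from the other libraries. On the first principal component of log2 expression, which held 27.1% of the variance, it scored -29.1, against -11.7 to 0.86 in the other TG libraries. All 8 nTG scores were higher, between 2.93 and 13.8. It also had the lowest total and the lowest share of mitochondrially encoded counts, 14.4%, where the 16 libraries reached up to 20.4%. Calls that ended without this library are given with and without it.

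**Figure D1:**
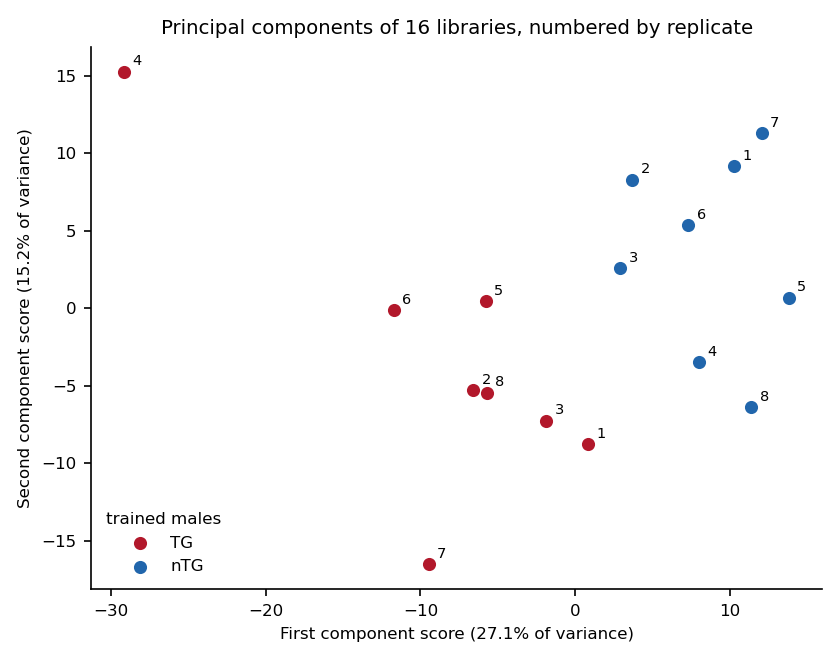
Scores of the 16 libraries on the first and the second principal component of centred log2 CPM, in arbitrary units, with TG in red, nTG in blue and replicate numbers beside the points. TG replicate 4 lies at -29.1 on the first component, and the remaining TG libraries lie between -11.7 and 0.86.

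Levels are given as CPM, counts relative to library sizes scaled by TMM, and differences as log2 fold changes of TG over nTG with their standard error. A gene was called when edgeR's quasi-likelihood test gave a Benjamini-Hochberg adjusted p under 0.05 over all 16913 genes. Values per group are lowest, median and highest of the 8 libraries.

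Tnnt2, which encodes cardiac troponin T and lies at chr1:135836354-135852260 on the forward strand of GRCm38, had the smallest p of all genes. Its CPM was 6918, 9154 and 10297 in TG and 3064, 3380 and 3557 in nTG. Every TG library lay above every nTG library. The mean was 8978 ± 1043 CPM in TG and 3332 ± 163 CPM in nTG (SD, n = 8 each), a 2.69-fold difference (log2 fold change 1.43 ± 0.07, edgeR adjusted p = 4.42e-26). The lowest TG value belonged to replicate 4, and without it the log2 fold change was 1.48. Counts per gene do not separate transgene transcripts from endogenous ones. The difference in sedentary males was 1.34 ± 0.07 and that in trained females 1.57 ± 0.07, both on the log2 scale.

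**Figure D2:**
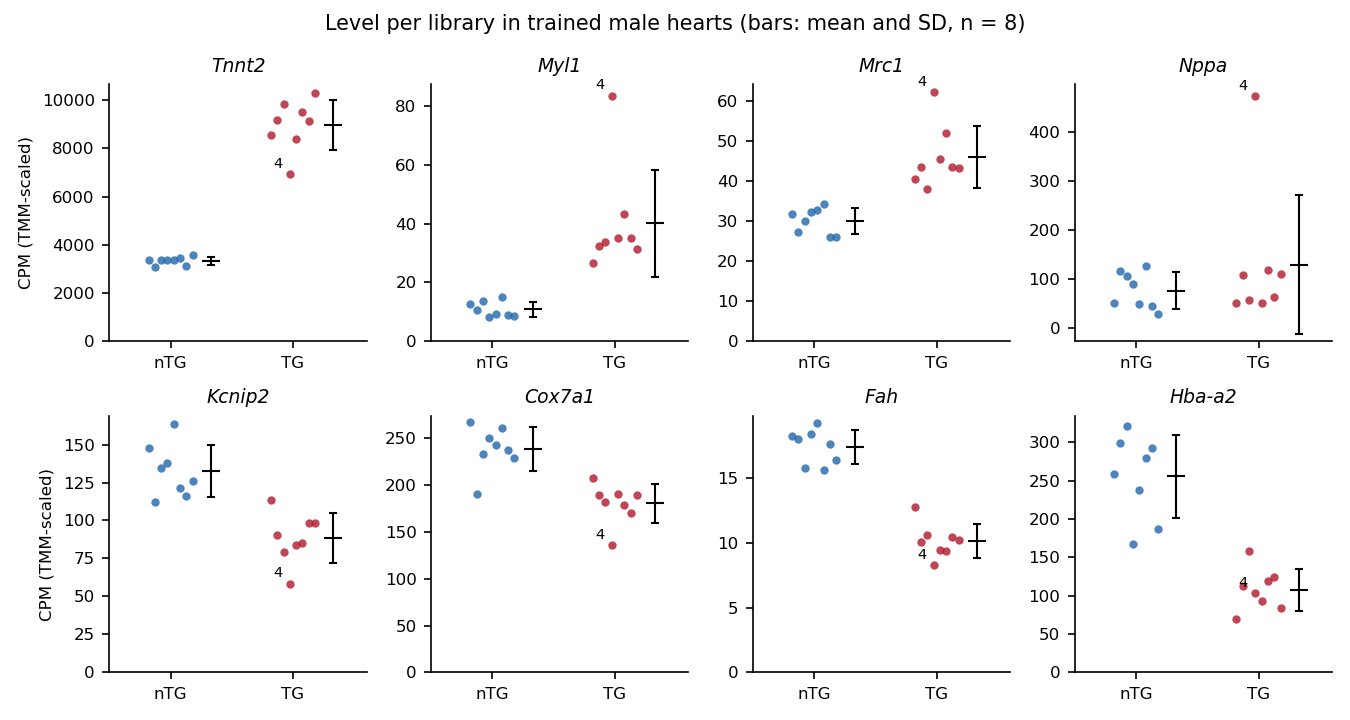
CPM of 8 genes in each of the 16 libraries, nTG in blue and TG in red, with the mean and SD (n = 8) as a bar beside the points and TG replicate 4 marked. Tnnt2, Myl1 and Mrc1 were higher and Fah and Hba-a2 lower in every TG library than in any nTG library, while the groups overlap for Nppa, Kcnip2 and Cox7a1.

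In all, 2361 genes were called, 14% of those tested. Of these, 956 were higher in TG (5.65% of all genes tested) and 1405 were lower (8.31%). Without TG replicate 4 there were 1754 calls, 657 higher (3.88% of genes tested) and 1097 lower (6.49%). Most differences were small: the median log2 fold change was 0.32 among genes called higher and -0.24 among those called lower, and 83.1% of called genes differed by less than 0.5. A difference above 1 was reached by 42 of the higher and 29 of the lower genes. Over all genes tested the median was 0.01. All TG libraries lay above all nTG libraries for 90 genes (0.532%) and below them for 218 (1.29%). The direction changed with abundance. In the fifth of genes with the lowest counts, 79 of 3383 were higher and 36 lower. In the fifth with the highest counts, 172 of 3383 were higher and 685 lower. Shares over all genes, given beside lists below, are not matched to the abundance of the list members.

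**Figure D3:**
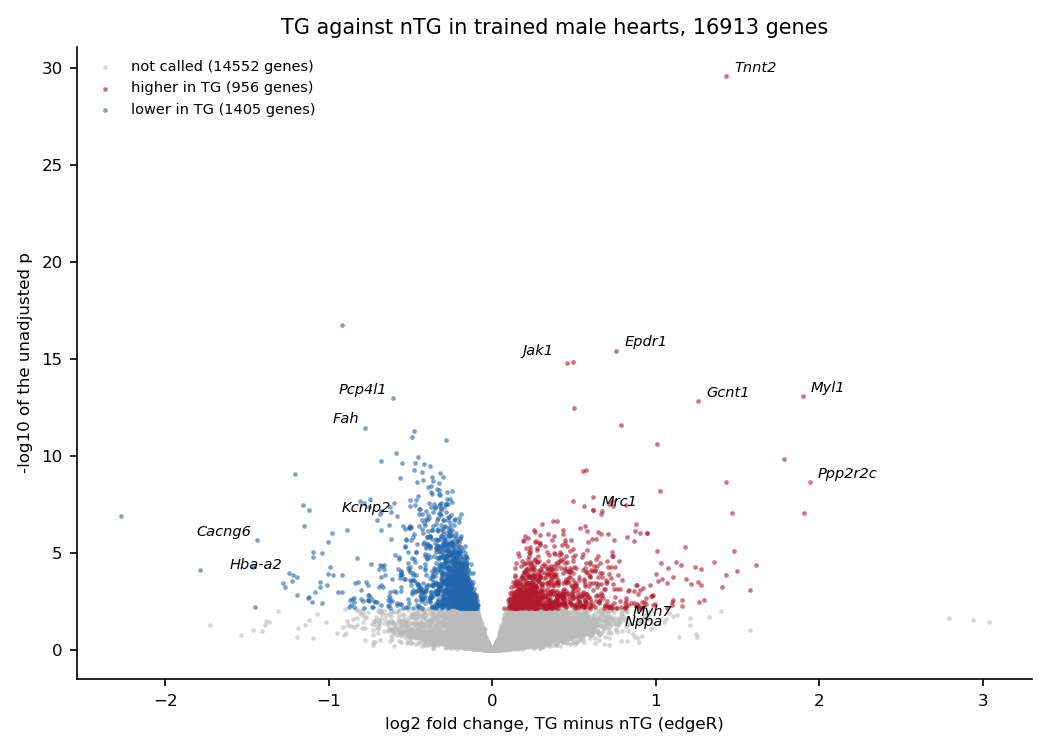
log2 fold change of TG over nTG against -log10 of the unadjusted edgeR p for 16913 genes, with called genes in red (956 higher in TG) and blue (1405 lower). Tnnt2 has the smallest p, and the bulk of the blue points lies between 0 and -0.5.

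The genes with the smallest p among those that rose had varied roles. Epdr1, an ependymin-related secreted glycoprotein, had 26.7, 30.3 and 34.1 CPM in TG and 14.6, 17.8 and 22.4 CPM in nTG, so the groups did not overlap (log2 fold change 0.76 ± 0.07, edgeR adjusted p = 2.10e-12). Jak1, a tyrosine kinase that relays cytokine signals, also had separate groups, with 203, 243 and 260 CPM in TG against 150, 170 and 185 CPM in nTG (0.49 ± 0.05, edgeR adjusted p = 5.55e-12). Gcnt1, a glycosyltransferase that branches mucin-type O-glycans, was 2.39-fold higher (1.26 ± 0.13, edgeR adjusted p = 3.07e-10). Groups were separate as well for Trim35 (log2 fold change 0.46), Mafg, a small Maf transcription factor (0.50), Thap1, a zinc-finger transcription factor (0.79), Slc38a4, an amino acid transporter (1.01), and Celsr1, a planar polarity cadherin (0.58). By size the largest rise was in Ppp2r2c, a regulatory subunit of protein phosphatase 2A, at 2.15, 3.82 and 6.26 CPM in TG and 0.44, 1.10 and 1.51 CPM in nTG (1.94 ± 0.28, edgeR adjusted p = 9.97e-07). Nos1, neuronal nitric oxide synthase, rose 2.82-fold with an overlap between groups (log2 fold change 1.496 ± 0.35, edgeR adjusted p = 0.00221). The muscle transcription cofactor Vgll2 rose by 1.48 ± 0.30 and the small GTPase Rasef by 1.43 ± 0.20 on the log2 scale. TG replicate 4 had the highest Nos1, 10.1 CPM, and without it the log2 fold change of Nos1 was 1.35.

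The genes that fell were likewise varied. Fah, the last enzyme of tyrosine breakdown, had 8.24, 10.1 and 12.7 CPM in TG and 15.6, 17.8 and 19.2 CPM in nTG, with separate groups (-0.78 ± 0.09, edgeR adjusted p = 5.20e-09). Abat, which degrades the transmitter GABA, fell by 0.68 ± 0.09 on the log2 scale with separate groups. Groups were also separate for Pcp4l1 (-0.61 ± 0.06, edgeR adjusted p = 2.40e-10), for Popdc2, a cAMP-binding membrane protein of heart and skeletal muscle (-0.47 ± 0.06), for Dmpk, the kinase whose gene is expanded in myotonic dystrophy (-0.42 ± 0.06), and for Ciapin1, an iron-sulfur assembly factor (-0.55 ± 0.07). Snn, Limch1 and Acad11, an acyl-CoA dehydrogenase, completed the set with separate groups, at -0.48, -0.28 and -0.45. Ttc7 was lower by 0.49 ± 0.06 on the log2 scale with overlapping groups. By size, Cacng6, a calcium channel gamma subunit, fell by 1.44 ± 0.27 and Poln, a DNA polymerase, by 1.28 ± 0.34 on the log2 scale. Poln lost its call with limma voom (adjusted p = 0.0713) and with the replicate block. Cyp26b1, which degrades retinoic acid, was called at -1.45 ± 0.51, but its call rested on few libraries. Leaving out any of 9 libraries in turn ended it. The highest nTG value, 89.9 CPM, was that of replicate 1, and without it the log2 fold change was -0.71 (edgeR adjusted p = 0.386).

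The other thin-filament genes moved little. Of 12 members, Tnnt2 was called higher and 4 lower, namely Tpm1 (tropomyosin), Tnnc1 (troponin C), Actc1 (cardiac actin) and Tmod1 (the pointed-end cap of actin). Over all genes tested, 5.65% were higher and 8.31% lower. The median log2 fold change of the list was -0.08, against 0.01 over all genes. Tpm1 had 3685, 4311 and 4757 CPM in TG and 4949, 5207 and 5552 CPM in nTG, with no overlap (-0.28 ± 0.04, edgeR adjusted p = 4.97e-06). Tnnc1, Actc1 and Tmod1 were lower by 0.18, 0.19 and 0.17 on the log2 scale with overlapping groups. The call of Actc1 was lost without TG replicate 2 (edgeR adjusted p = 0.0503) or nTG replicate 5. Tnni3, cardiac troponin I and the third troponin subunit, was not called (-0.04 ± 0.06, edgeR adjusted p = 0.743, and 0.02 without TG replicate 4). In the list of 16 thick-filament, titin and M-band genes, Mybpc3, myosin-binding protein C, fell (-0.26 ± 0.05), as did Myl3, the essential light chain (-0.19 ± 0.06). Ttn, titin, was 0.16 ± 0.05 higher on the log2 scale, a call that leaving out any of 7 libraries in turn ended, with an adjusted p up to 0.0716. Among the fifth of all genes with the highest counts, 685 of 3383 were lower. Of 29 Z-disc, intercalated disc and mechanosensing genes, 6 fell (20.7% were called, against 14% over all genes) and 0 rose. They included Ldb3, a Z-disc scaffold (-0.28 ± 0.04), Fhl2, a LIM protein of the sarcomere (-0.37 ± 0.07), and Jup, plakoglobin of the intercalated disc (-0.20 ± 0.05).

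Among the skeletal muscle isoforms, Myl1 had the largest rise. Myl1, the essential light chain of fast skeletal and embryonic muscle, had 26.7, 34.3 and 83.7 CPM in TG and 8.21, 9.74 and 14.96 CPM in nTG. All TG libraries lay above all nTG libraries, and the mean was 40.2 ± 18.2 against 10.7 ± 2.57 CPM (1.90 ± 0.20, edgeR adjusted p = 2.28e-10). The 83.7 CPM belonged to TG replicate 4, and without that library the log2 fold change was 1.66 ± 0.18. Mybpc2, the fast skeletal form of myosin-binding protein C, rose with an overlap between groups (1.03 ± 0.15, edgeR adjusted p = 2.34e-06), and was at 0.90 ± 0.15 without replicate 4. Of the 9 isoform genes in the table, 3 were higher and 1 lower, against 5.65% and 8.31% of all genes. Without TG replicate 4 the counts were 2 and 1, against 3.88% and 6.49%. Without nTG replicate 1 or 5, 2 members were called in all. The remaining calls were Casq1, skeletal calsequestrin (0.81 ± 0.29), and Neb, nebulin (-1.12 ± 0.35). Casq1 lost its call when any of 10 libraries was left out, TG replicate 4 among them (edgeR adjusted p = 0.0827), and Neb lost it without nTG replicate 1, 2 or 5 (edgeR adjusted p up to 0.0775) and with limma voom (adjusted p = 0.0601). Only 1 of 10 marker genes of skeletal muscle fibres was in the table, at a summed level of 0.499 to 1.06 CPM in TG and 0.317 to 1.004 CPM in nTG.

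With all 16 libraries, 6 classical markers of cardiac stress were not called, and 2 of them were called once a certain library was left out. Nppa, atrial natriuretic peptide, had 51.6, 86.5 and 472 CPM in TG and 29.3, 70.6 and 126 CPM in nTG, and the groups overlapped (0.76 ± 0.44, edgeR adjusted p = 0.271). The value of 472 CPM came from TG replicate 4, and without it the log2 fold change was 0.07 ± 0.42. Myh7, the slow beta-myosin heavy chain of the fetal heart, had 452, 908 and 2671 CPM in TG and 236, 420 and 2218 CPM in nTG (0.81 ± 0.36, edgeR adjusted p = 0.130). Its highest values came from TG replicate 4 and nTG replicate 2. The log2 fold change of Myh7 was 0.48 ± 0.36 without TG replicate 4, and without nTG replicate 2 it was 1.46 and called (edgeR adjusted p = 0.00174). Nppb, brain natriuretic peptide, was at 0.13 ± 0.24 (edgeR adjusted p = 0.780), and from -0.08 without TG replicate 4 to 0.29 without nTG replicate 2. Acta1, skeletal actin, was at 0.10 ± 0.34 (edgeR adjusted p = 0.893), and from -0.22 without TG replicate 4 to 0.43 without nTG replicate 2. Ankrd1, a titin-associated stress gene, was at 0.30 ± 0.19 (edgeR adjusted p = 0.312), and at 0.07 ± 0.18 without TG replicate 4. Myh6, the adult alpha-myosin heavy chain, was at -0.12 ± 0.05 (edgeR adjusted p = 0.0967), and without TG replicate 1 it was called (edgeR adjusted p = 0.0484). Leaving out TG replicate 4 moved it to -0.08 ± 0.05 (edgeR adjusted p = 0.295). Of 8 natriuretic peptide pathway genes, 2 fell and 0 rose, against 8.31% and 5.65% of all genes. Those that fell were the receptor Npr2 (-0.17 ± 0.03) and the protease Furin (-0.24 ± 0.05). The clearance receptor Npr3 and the processing enzyme Corin were not called (0.04 ± 0.11 and -0.16 ± 0.08).

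Among genes of cardiac repolarisation and conduction, more were called lower than higher, and most were not called. Of 24 potassium channel genes, 10 fell and 1 rose, with a median of -0.14, where 8.31% of all genes fell and 5.65% rose. With TG replicate 4 left out, 7 fell and 0 rose, against 6.49% and 3.88% of all genes. Kcnip2, the accessory subunit that sets the transient outward current, had 58.4, 87.9 and 114 CPM in TG and 112, 130 and 164 CPM in nTG, and the groups overlapped by a narrow margin (-0.58 ± 0.10, edgeR adjusted p = 1.93e-05). Kcnh2, the channel of the rapid delayed rectifier current, was lower by 0.39 ± 0.07 on the log2 scale, and Kcnj11, the pore of the ATP-sensitive channel, by 0.28 ± 0.05. The background potassium channel Kcnk3 was lower by 0.33 ± 0.07 with separate groups. Kcnk6 was the member called higher (0.26 ± 0.08), with an adjusted p from edgeR of 0.0503 without TG replicate 4 and 0.0553 without TG replicate 6.

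Hcn2, a pacemaker channel, had 31.2, 39.4 and 44.3 CPM in TG and 44.9, 53.9 and 80.95 CPM in nTG, and every TG library lay below every nTG library (-0.58 ± 0.13, edgeR adjusted p = 0.00187). In the list of 21 sodium, calcium, pacemaker and connexin genes, 5 fell and 1 rose, against 8.31% and 5.65% of all genes. Scn4b, a sodium channel beta subunit, was lower (-0.51 ± 0.12). Scn4a, the skeletal sodium channel, was lower as well (-0.44 ± 0.10).

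Calcium cycling and adrenergic genes showed a mixture. Of 26 sarcoplasmic reticulum and calcium cycling genes, 6 fell and 1 rose, and the median was 0.00. Over all genes, 8.31% fell and 5.65% rose. Hrc, a calcium-binding protein of the reticulum lumen, fell with separate groups (-0.30 ± 0.06, edgeR adjusted p = 0.000590), and cardiac calsequestrin, Casq2, by 0.19 ± 0.05. Atp2a2, the calcium pump SERCA2, was at -0.18 ± 0.06 (edgeR adjusted p = 0.0190), and without TG replicate 4 at -0.14 with an adjusted p of 0.0673 from edgeR. The kinase subunits Camk2a and Camk2b were called in opposite directions (-0.29 ± 0.07 and 0.30 ± 0.08). Of 36 beta-adrenergic and cAMP genes, 7 fell and 3 rose, and 27.8% were called in either direction, against 14% of all genes. Pde4a, a cAMP phosphodiesterase, fell with separate groups (-0.43 ± 0.06, edgeR adjusted p = 4.32e-07), whereas Pde3b, another phosphodiesterase, rose by 0.45 ± 0.10. Adra1b, an alpha-adrenergic receptor, was lower by 0.41 ± 0.09, and Akap1, which anchors protein kinase A to mitochondria, by 0.29 ± 0.06.

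Genes of energy metabolism were lower in many cases, mostly by a small amount. In nuclear genes of respiratory complex I, 17 of 37 were lower and 1 higher, with a median of -0.16. In complexes III and IV and ATP synthase, 16 of 40 were lower and 0 higher (median -0.12). The share called lower over all genes was 8.31%, or 6.49% without TG replicate 4. Both counts leaned on TG replicate 4, which had the lowest TG level for 36 of the 37 and for 37 of the 40 genes. Without it 8 and 9 members were lower, and the medians were -0.11 and -0.07. The summed level of the complex I genes was 4181, 5587 and 5868 CPM in TG and 5733, 5946 and 6243 CPM in nTG. With replicate 4 left out the lowest TG sum was 5218 CPM.

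Cox7a1, the heart and muscle form of a cytochrome oxidase subunit, had 136, 185 and 207 CPM in TG and 190, 239 and 267 CPM in nTG. Only the lowest nTG library fell within the TG range (-0.41 ± 0.07, edgeR adjusted p = 2.50e-05, and -0.36 ± 0.07 without TG replicate 4). Ndufab1, the mitochondrial acyl carrier protein that is part of complex I, was lower by 0.25 ± 0.05 on the log2 scale and by 0.20 ± 0.04 without that library. Cox6a2, another muscle isoform, was lower by 0.37 ± 0.09, and Atp5g1, a membrane subunit of ATP synthase, by 0.25 ± 0.05. The exception among complex I genes was Ndufb4, which rose (0.32 ± 0.07, edgeR adjusted p = 0.00148).

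NRF1 is a transcription factor known to act on many nuclear respiratory genes, so its full palindromic site was searched for in the 250 bases upstream of the annotated starts. The RefSeq promoter table (GRCm38.p6) matched 63 of the 77 genes of both respiratory lists, with 68 promoters. The site, GCGCA followed directly by its reverse complement TGCGC, reads the same on both strands and occurred in 4 of these promoters (5.88%) and in 0.782% of all 32851 promoters. All 4 genes were called lower, as were 17 of 37 and 16 of 40 members of the searched lists and 8.31% of all genes, so the count says nothing of the site itself. The sites are shown with the motif in capitals and 10 flanking bases on each side, 5′ to 3′ on the gene's strand.
Ndufa11, chr17:56717692-56717721, forward strand: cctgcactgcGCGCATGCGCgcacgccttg
Cox6a1, chr5:115349101-115349130, reverse strand: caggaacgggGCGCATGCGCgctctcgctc
Atp5g2, chr15:102671070-102671099, reverse strand: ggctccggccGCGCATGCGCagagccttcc
Atp5k, chr5:108434430-108434459, reverse strand: tttcactgcgGCGCATGCGCctttctggct
Their log2 fold changes were -0.23 ± 0.05 for Ndufa11, a complex I assembly subunit, -0.25 ± 0.07 for Cox6a1, the widely expressed counterpart of Cox6a2, -0.19 ± 0.05 for Atp5g2, a membrane ring subunit of ATP synthase, and -0.27 ± 0.09 for Atp5k, a small ATP synthase subunit. Atp5k lost its call without TG replicate 4 (edgeR adjusted p = 0.103) and without any of 4 other libraries. The motif begins 60 bases upstream of the start of Ndufa11, 162 of Cox6a1, 42 of Atp5g2 and 50 of Atp5k. By GENCODE all 30 bases of the Atp5g2 window and 19 of the Atp5k window also lie in an exon of the same gene, and 1 base of the Cox6a1 window lies in an exon of Gm42903. The estrogen-related receptor site TCAAGGTCA, searched on both strands, occurred in 1 of the 68 promoters (1.47%, against 0.387% of all promoters), that of Atp5g3. The muscle motif CATTCCT, also on both strands, was in 2 (2.94%, against 4.51%). A match of letters describes the sequence and does not show binding.

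Over all genes 8.31% were called lower, or 6.49% without TG replicate 4. Of the 13 respiratory chain genes encoded in mitochondrial DNA, 3 were lower and 0 higher, and 1 without TG replicate 4. They were mt-Nd4l (-0.36 ± 0.10), mt-Nd6 (-0.43 ± 0.14) and mt-Nd5 (-0.23 ± 0.08). Without TG replicate 4 the adjusted p of edgeR was 0.0583 for mt-Nd6 and 0.113 for mt-Nd5. Leaving out nTG replicate 1 or TG replicate 2 also brought the number to 1. Neighbouring mitochondrial genes overlap, and the strand setting of the counting is not stated, so their reads may be shared. The share of mitochondrially encoded counts was 14.4% to 18.7% in TG and 17.3% to 20.4% in nTG.

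Genes of pathways that feed the respiratory chain were called lower in part, and their counts can be read against 8.31% of all genes, or 6.49% without TG replicate 4. Of 37 fatty acid uptake and oxidation genes, 16 fell and 0 rose (median -0.13), and 11 fell without TG replicate 4. Pnpla2, the lipase that starts triglyceride breakdown, had 259, 310 and 368 CPM in TG and 363, 381 and 422 CPM in nTG, with a small overlap (-0.32 ± 0.06, edgeR adjusted p = 0.000252). Plin5, which couples lipid droplets to mitochondria, was lower by 0.34 ± 0.07, Acsl6, an acyl-CoA synthetase, by 0.55 ± 0.13, and Acacb, which makes the malonyl-CoA that restrains fatty acid entry, by 0.22 ± 0.05. Of 33 pyruvate oxidation and TCA cycle genes, 14 fell and 0 rose (11 without TG replicate 4). Among them, Pdp2, the phosphatase that activates pyruvate dehydrogenase, was lower by 0.53 ± 0.10 with separate groups, and the dehydrogenase subunits Dlat and Pdhx by 0.23 ± 0.04 and 0.25 ± 0.05. Of 22 genes of branched-chain amino acid breakdown, 9 fell and 0 rose (7 without TG replicate 4), including Ivd (-0.31 ± 0.06) and Dbt (-0.29 ± 0.07), both with separate groups.

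Of 34 glucose transport, glycolysis and glycogen genes, 13 fell and 2 rose (9 and 2 without TG replicate 4), where 8.31% of all genes fell and 5.65% rose. Gys1, muscle glycogen synthase, had 175, 190 and 204 CPM in TG and 214, 238 and 264 CPM in nTG, so the groups were separate (-0.33 ± 0.05, edgeR adjusted p = 2.00e-06). Pfkfb1, which sets the level of an activator of glycolysis, fell furthest of the list (-1.16 ± 0.18, edgeR adjusted p = 7.63e-06). The phosphofructokinase isoforms diverged, with Pfkl, the liver type, lower (-0.26 ± 0.05) and Pfkp, the platelet type, higher (0.48 ± 0.10). Slc2a12, a glucose transporter, was lower by 0.62 ± 0.12 on the log2 scale.

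Regulators of mitochondrial content were lower in part: 9 of 25 fell and 1 rose, against 8.31% and 5.65% of all genes. Mtfp1, a mitochondrial fission protein (-0.36 ± 0.06, edgeR adjusted p = 1.30e-05), and Sirt3, the mitochondrial deacetylase (-0.33 ± 0.05, edgeR adjusted p = 1.44e-05), both had separate groups. Esrrb, an estrogen-related receptor, and Perm1, a muscle cofactor of these receptors, were lower by 0.30 ± 0.06 and 0.24 ± 0.05. Mitochondrial ribosomal protein genes were lower in 30 of 78 cases and higher in 0, with 18 lower without TG replicate 4. Of 82 cytosolic ribosomal protein genes, edgeR called 0 lower and 1 higher, and 0 to 3 higher when single libraries were left out.

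Of 28 chaperone genes, 6 were lower and 1 higher, against 8.31% and 5.65% of all genes. Without TG replicate 4 the counts were 6 and 0, against 6.49% and 3.88%. Leaving out nTG replicate 5 left 4 lower and 0 higher. Cryab, alpha-B crystallin, which guards desmin and titin, had 547, 581 and 647 CPM in TG and 636, 747 and 795 CPM in nTG, and the groups overlapped slightly (-0.32 ± 0.04, edgeR adjusted p = 4.56e-07). The small heat shock proteins Hspb6 and Hspb7 and the co-chaperone Bag3 were lower by 0.40 ± 0.07, 0.32 ± 0.09 and 0.28 ± 0.06 on the log2 scale.

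Counts of cell type markers can be read against 8.31% of all genes called lower and 5.65% called higher. Of 10 endothelial markers 1 was lower, of 4 adipocyte markers 1 was lower, and of 7 Schwann cell markers 1 was higher. With single libraries left out, the adipocyte count was 0 to 1 and the Schwann cell count 0 to 2, with 0 without TG replicate 4. In lists this short, 1 call says little of the cell type. EdgeR called 0 of the 10 pericyte and smooth muscle markers, 0 of 8 lymphocyte, 0 of 5 neutrophil, 0 of 3 mesothelial and 0 of 5 atrial myocyte markers. Of these 31 genes 1, a mesothelial marker, had an unadjusted p under 0.05, and DESeq2 and limma voom called 0 of them as well. Of 10 cardiomyocyte markers 5 were lower and 0 higher, and their summed level was 57905, 72550 and 76444 CPM in TG and 72556, 77083 and 83073 CPM in nTG. The lowest TG sum was that of replicate 4, and the next was 66456 CPM. In bulk RNA, fewer cells of a type and less RNA per cell cannot be told apart. The part of these shifts in the lower metabolic and channel genes, and in the higher matrix and immune genes, was not tested.

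Fibroblast markers were higher in 6 of 10 cases (4 without TG replicate 4) and lower in 0. Over all genes, 5.65% were higher, or 3.88% without TG replicate 4. The summed level of the fibroblast markers was 1969, 2266 and 3117 CPM in TG and 1574, 1877 and 2324 CPM in nTG. Lum, the collagen-binding proteoglycan lumican, had 26.1, 31.8 and 63.7 CPM in TG and 15.1, 22.1 and 26.4 CPM in nTG (0.71 ± 0.13, edgeR adjusted p = 9.56e-05). The highest value was that of TG replicate 4, and without it the difference was 0.53 ± 0.12 (edgeR adjusted p = 0.00134). Pdgfra, the receptor that defines cardiac fibroblasts, was at 0.41 ± 0.09, and at 0.32 ± 0.08 without replicate 4. Dcn, the proteoglycan decorin, was at 0.43 ± 0.09, and at 0.36 ± 0.09 without it.

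Among genes of fibrillar collagens, the values turned on the libraries kept. Counts of higher members in these matrix lists can be read against 5.65% of all genes, or 3.88% without TG replicate 4. Col1a1 was at 0.32 ± 0.16 (edgeR adjusted p = 0.181), and at 0.09 ± 0.14 without TG replicate 4. Col1a2 was called at 0.43 ± 0.14 (edgeR adjusted p = 0.0225), and lost its call without TG replicate 4 (0.24 ± 0.12, edgeR adjusted p = 0.220) or nTG replicate 5. Col3a1 was at 0.45 ± 0.16 (edgeR adjusted p = 0.0519), with an adjusted p of edgeR from 0.0226 without TG replicate 1 to 0.406 without TG replicate 4, where the difference was 0.20 ± 0.14. Postn, a marker of activated fibroblasts, was at 0.28 ± 0.21 (edgeR adjusted p = 0.421), and at 0.0019 ± 0.20 without TG replicate 4. In the whole list of 34 collagen and matrix genes, 6 rose and 1 fell, and 3 and 1 without TG replicate 4. With each library left out in turn, 3 to 9 of the 34 rose. Of 17 basement membrane genes 7 rose and 0 fell, but only 3 rose without TG replicate 4 and 4 without nTG replicate 8. Lamc1, Lama2 and Lama4, chains of laminin, differed by 0.18 ± 0.05, 0.18 ± 0.05 and 0.15 ± 0.04. Lamc1 and Lama4 lost their calls with the replicate block (edgeR adjusted p = 0.0514 and 0.0509). Of 42 profibrotic signal genes 7 rose and 1 fell, or 3 and 1 without TG replicate 4. With each library left out in turn, 3 to 11 of these rose. Tgfbr1, a receptor of transforming growth factor beta, rose (0.34 ± 0.06, edgeR adjusted p = 9.71e-05), as did Mmp2, a matrix protease (0.58 ± 0.14, and 0.35 ± 0.12 without TG replicate 4). Agt, angiotensinogen, was the member that fell (-0.66 ± 0.15). Tnc, tenascin C, reached 15.1 CPM in TG replicate 4 against at most 4.56 CPM in the other TG libraries. Its difference was 1.26 ± 0.33 (edgeR adjusted p = 0.00573), and 0.75 without that library (edgeR adjusted p = 0.104).

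Macrophage markers were higher in 6 of 12 cases and lower in 0, against 5.65% and 8.31% of all genes. Without TG replicate 4, 4 were higher, against 3.88% of all genes. The summed level was 245, 284 and 417 CPM in TG and 186, 229 and 258 CPM in nTG, and 7 of 8 TG libraries exceeded all nTG libraries. Mrc1, the mannose receptor of resident macrophages, had 38.1, 43.5 and 62.4 CPM in TG and 25.97, 30.9 and 34.3 CPM in nTG, with separate groups (0.62 ± 0.10, edgeR adjusted p = 1.18e-05). Adgre1, a surface antigen of macrophages, was also separate (0.66 ± 0.12, edgeR adjusted p = 9.07e-05), as was Csf1r, the receptor for the macrophage growth factor (0.42 ± 0.09). Without TG replicate 4 the differences of Mrc1 and Adgre1 were 0.54 ± 0.10 and 0.55 ± 0.12. Igf1, a growth factor made by macrophages and fibroblasts, had 16.2, 19.7 and 30.6 CPM in TG and 10.9, 13.5 and 19.1 CPM in nTG (0.61 ± 0.12, edgeR adjusted p = 0.000151). Hmox1, the haem-degrading enzyme, rose by 0.60 ± 0.15.

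The number of immune response genes called changed with the libraries kept, against 5.65% called higher over all genes. Of 36 interferon response and antigen presentation genes 4 rose (11.1%) and 0 fell. Without TG replicate 4, 1 rose and 1 fell. The number called was also 2 without nTG replicate 7 or 8, 7 without nTG replicate 3 or TG replicate 6, and 8 without TG replicate 1 or 3. Ifit1 had 2.79, 4.68 and 12.8 CPM in TG and 2.32, 2.82 and 3.98 CPM in nTG (0.88 ± 0.24, edgeR adjusted p = 0.00729). The 12.8 CPM was TG replicate 4, and without it the difference was 0.58 (edgeR adjusted p = 0.0843). Of 28 inflammation genes 3 rose (10.7%) and 0 fell. That was 1 without TG replicate 4, and 5 without nTG replicate 1, nTG replicate 3 or TG replicate 3. The complement genes C3 and C4b were at 0.63 ± 0.15 and 0.82 ± 0.26, and without TG replicate 4 at 0.51 ± 0.15 and 0.55, with an adjusted p of edgeR of 0.0148 and 0.155. The core of the interferon response element, GAAA, any 2 bases and GAAA again, on either strand, stood in 11 of 32 matched promoters of this list (34.4%, from 27 genes matched) and in 2.98% of all promoters. Of those 11 genes, 2 were called, and the first site of each is shown with the motif in capitals as its reverse complement and 10 bases on either side.
Ifit1, chr19:34640775-34640804, forward strand: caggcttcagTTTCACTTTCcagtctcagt
Ifit3, chr19:34583363-34583392, forward strand: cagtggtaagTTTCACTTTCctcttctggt
Ifit3, an antiviral gene of the same family as Ifit1, was at 0.72 ± 0.25, and at 0.35 ± 0.23 without TG replicate 4 (edgeR adjusted p = 0.368). Its call was lost when any of 9 libraries was left out.

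Genes of red blood cells were lower in TG. Of 6 such genes 5 fell and 0 rose, against 8.31% and 5.65% of all genes. The summed level of the 6 was 260, 384 and 555 CPM in TG and 573, 935 and 1114 CPM in nTG. All 8 TG sums lay below all nTG sums. Hba-a2, an alpha-globin, had 69.8, 108 and 159 CPM in TG and 168, 269 and 322 CPM in nTG (-1.24 ± 0.30, edgeR adjusted p = 0.00276). Hbb-bs, a beta-globin, had 109, 168 and 234 CPM in TG and 246, 407 and 486 CPM in nTG (-1.23 ± 0.32, edgeR adjusted p = 0.00501). Near-identical globin copies can share reads, so single copies are uncertain. Alas2, the erythroid enzyme of haem synthesis, moved with them (-1.09 ± 0.31). When the fit held only the 32 male libraries, Alas2 and Hbb-bt lost their calls (edgeR adjusted p = 0.0560 and 0.0571), and 3 of the 6 genes were lower.

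**Figure D4:**
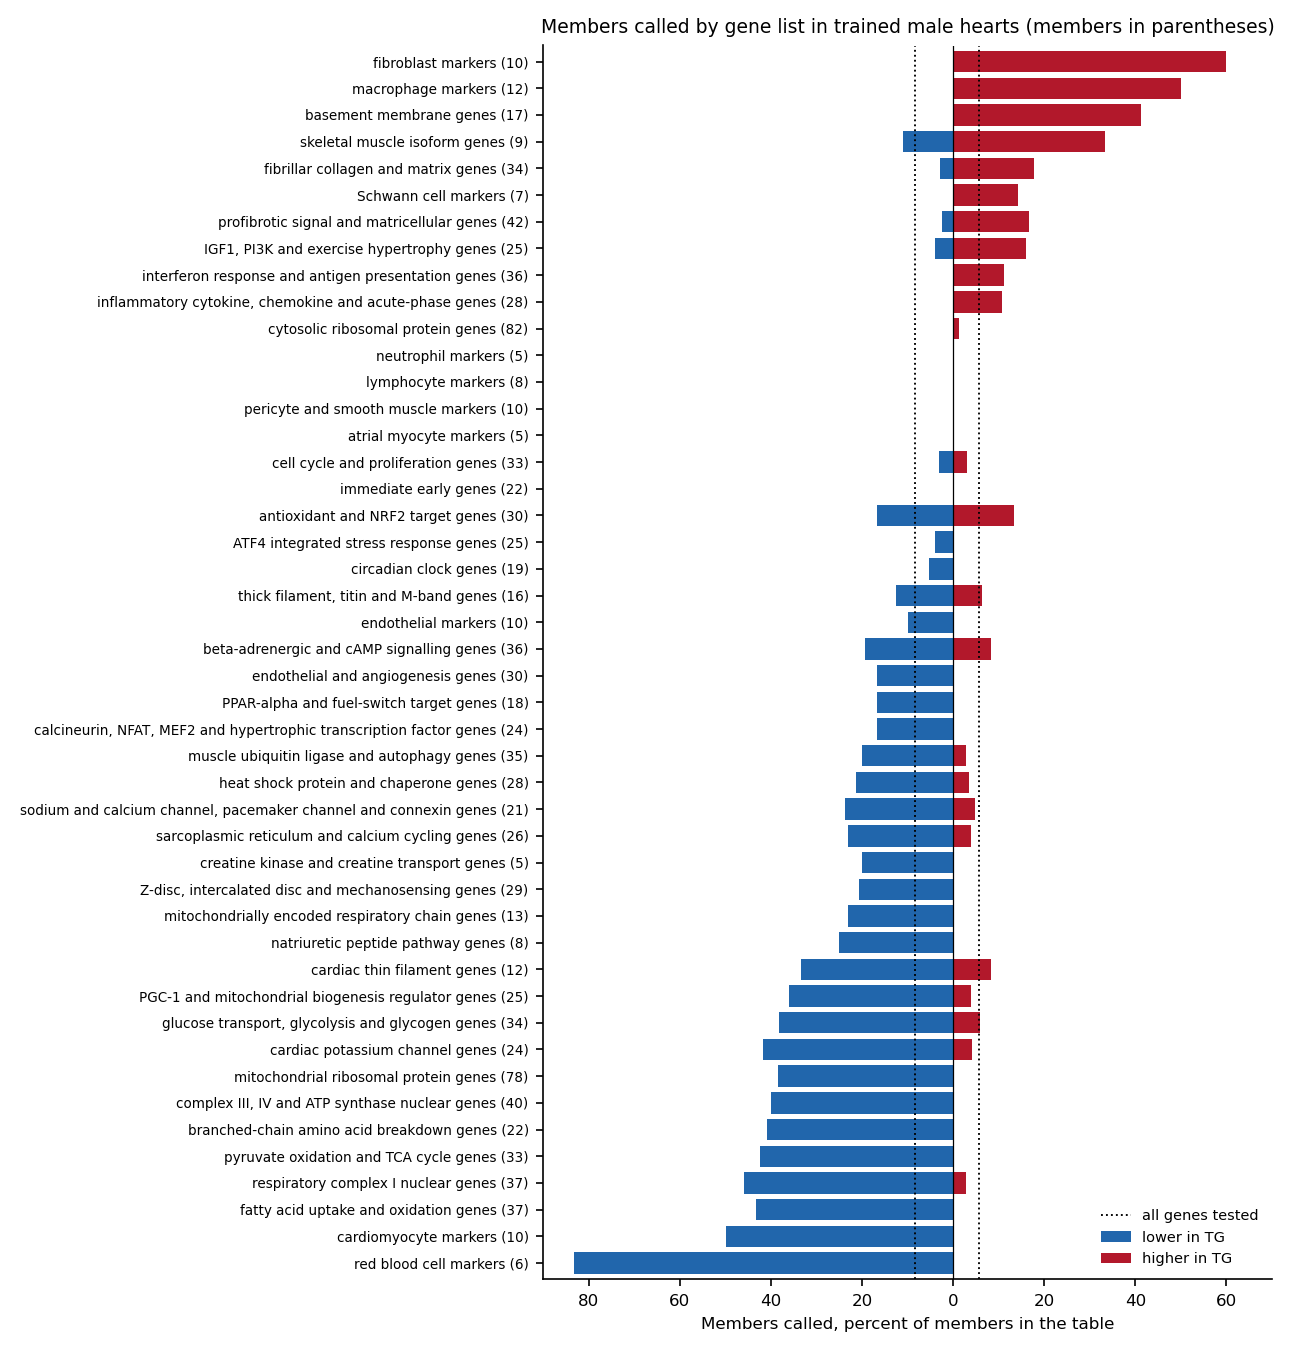
Share of members called lower (blue, to the left) and higher (red, to the right) in TG for each gene list with at least 5 members in the table, in percent of those members. Dotted lines mark the shares over all genes tested, 8.31% lower and 5.65% higher. Red blood cell and cardiomyocyte markers extend furthest to the left, ahead of metabolic and potassium channel lists, and fibroblast and macrophage markers furthest to the right.

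The counts of further lists can be read against the 8.31% called lower over all genes. Among 22 immediate early genes no call was made by edgeR, for example Fos at -0.17 ± 0.31 (-0.28 without TG replicate 4). Of 30 endothelial and angiogenesis genes 5 fell (16.7%) and 0 rose. Of 24 calcineurin, NFAT and MEF2 genes 4 fell (16.7%) and 0 rose, among them Myocd, the cofactor of serum response factor (-0.32 ± 0.07), and Mef2d (-0.25 ± 0.06). In the 25 ATF4 stress response genes 1 fell, Atf5 (-0.33 ± 0.10). With single libraries left out this list had 1 to 2 calls, 2 without TG replicate 1 or 7. Ckm, muscle creatine kinase, was lower by 0.28 ± 0.06 on the log2 scale.

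The same contrast was available in 2 other sets of mice that share no library with the first: 9 TG and 7 nTG sedentary males, and 6 TG and 10 nTG trained females, as labelled. Sedentary males had 3488 called genes (20.6%), of which those higher were 9.39% and those lower 11.2% of all genes. Trained females had 2503 (14.8%), with 5.37% higher and 9.43% lower. Of the 2361 calls in trained males, 1168 were shared in direction with sedentary males, which is 49.5% of the list of trained males and 33.5% of that of sedentary males. With trained females 1233 were shared, 52.2% and 49.3% of the respective lists. Opposite calls numbered 4 and 1. All 3 comparisons shared 880 calls, and 836 were called in trained males and in neither of the others. Over all 16913 genes, which are not independent replicates, log2 fold changes of trained males had a Pearson's r of 0.50 with sedentary males and 0.56 with trained females.

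Tests of the difference between these effects called 0 genes with edgeR. For trained against sedentary males 2503 genes had an unadjusted p under 0.05 (14.8%) and the smallest adjusted p of edgeR was 0.131. DESeq2 called 13 and limma voom 300. For trained males against trained females, 910 genes had an unadjusted p under 0.05 (5.38%), DESeq2 called 0 and limma voom 1. The differences between comparisons given below did not pass the threshold of edgeR.

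**Figure D5:**
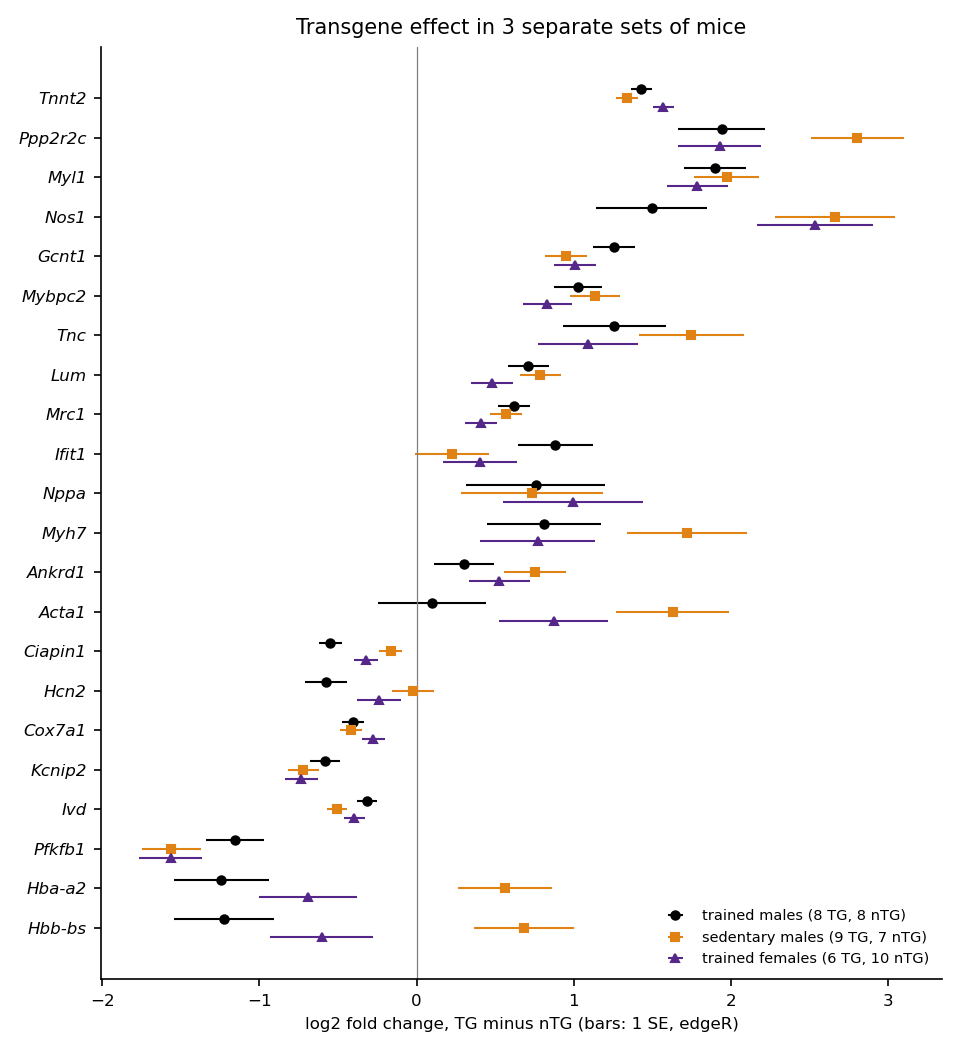
log2 fold change of TG over nTG, with 1 SE as a bar, for 22 genes in trained males (black), sedentary males (orange) and trained females (purple). Tnnt2, Myl1 and Kcnip2 lie close together in the 3 sets, while Hba-a2 and Hbb-bs lie above 0 in sedentary males and below 0 in both trained sets, and Acta1 in trained females lies between the male sets.

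Acta1 had 288 ± 173 CPM in trained TG and 269 ± 197 CPM in trained nTG males. In sedentary males it was 529 ± 258 CPM in TG (n = 9) and 171 ± 61.5 CPM in nTG (n = 7), a log2 fold change of 1.63 ± 0.36. The difference of the effects was -1.53 ± 0.49 (edgeR adjusted p = 0.175). Myh7 was at 1.72 ± 0.38 in sedentary males, and the difference of the effects was -0.91 ± 0.51 (edgeR adjusted p = 0.401). That difference rests in part on nTG replicate 2, without which the effect in trained males was 1.46. Collagen and matrix genes were called higher in 24 of 34 cases in sedentary males, 9 of 34 in trained females and 6 of 34 in trained males. For macrophage markers the counts were 12, 7 and 6 of 12 in the same order. Over all genes, 9.39%, 5.37% and 5.65% were called higher. Lower complex I genes numbered 35, 20 and 17 of 37, and those of complexes III and IV and ATP synthase 33, 15 and 16 of 40. Over all genes, 11.2%, 9.43% and 8.31% were called lower. Whether those counts differ between the comparisons was not tested beyond the gene-wise tests above.

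Other genes had the larger difference in trained males. Hcn2 was at -0.02 ± 0.14 in sedentary males (difference of effects -0.55 ± 0.19, edgeR adjusted p = 0.196). Hspb6 was at -0.03 ± 0.07 (difference -0.37 ± 0.11, edgeR adjusted p = 0.142) and Ciapin1 at -0.17 ± 0.07 (difference -0.38 ± 0.10, edgeR adjusted p = 0.131). For Hba-a2 the effect in sedentary males was 0.56 ± 0.30, and the difference of -1.80 ± 0.43 had an adjusted p of edgeR of 0.131. Sedentary TG males varied widely in this gene, with 295 ± 374 CPM, against 200 ± 66.1 CPM in sedentary nTG males.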

How the data were processed

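Heart RNA was depleted of ribosomal RNA before library preparation, per the labels' protocols. The submitters' processing notes name cutadapt 2.3, FastQC 0.11.8, MultiQC 1.7, STAR 2.7.8a and RSEM 1.3.3, and the builds GRCm38 and mm10. Strand setting, annotation and any filter on low genes are not given in the sources used here. The authors deposited whole-number counts per gene for 16913 genes and expected counts of long noncoding transcripts, of which 3787 were in the table. Expected counts served only to match columns: Pearson's r of centred log2 CPM (pseudocount 0.5) over 389 autosomal transcripts found in both, each averaging 20 counts or more. All 64 best matches were mutual.

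Gene counts were tested in R 4.3.3 with edgeR 4.0.16 (quasi-likelihood F test after TMM scaling). The 64 libraries were fitted together, with 1 coefficient per group and 8 groups. filterByExpr kept all 16913 genes. Symbols and positions came from GENCODE M21 (GRCm38), which named 16887. Alternatives used DESeq2 1.42.0, limma voom 3.58.1, other scalings, filters and fits, and each of the 16 libraries left out. Replicates are separate libraries labelled as biological replicates. In the main fit, p-values set a group difference against the spread within groups, estimated over all 64 libraries. With only the 16 libraries fitted, 1911 of the 2361 calls were shared.

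On simulated counts of 16913 genes with 200 changed, the comparison in trained males recovered 69% at a log2 change of 0.5 and 93% at 1. The test of its difference from sedentary males recovered 54% and 81%. Simulated counts were drawn independently around 1 mean per gene, with no library set apart as TG replicate 4 was. Most differences called in the real counts were below 0.5. These rates therefore do not give the power of the tests in these data.

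Members and lists were chosen with earlier results of these data known. The genes named are Tnnt2, the 10 rising and 10 falling with the smallest p (mean of at least 50 counts, no clone names), the 6 of each direction with the largest change (at least 1 CPM), and 4 per list or all of lists up to 9. Further genes were named after their values were seen. Replicate numbers did not pair TG with nTG libraries. Some genes that this rule names are not reported here.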

Additional observations from a re-analysis of the deposited data

Results flagged for a closer look

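In a group of 8 libraries, a value was singled out when its gap to the next library, divided by the range of the group, exceeded Dixon's 95% critical value for that number. Of 120 groups tested 23 did so, 18 of them in TG replicate 4. Chance singles out about 1 in 20 independent groups, but these groups overlap (a gene and a sum that holds it) and were chosen with values known, so their number cannot be set against chance.

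In TG replicate 4, Myl1 was at 83.7 CPM (others up to 43.3), Nppa at 472 CPM (others up to 119), Myh7 at 2671 CPM (others up to 1383), Acta1 at 689 CPM (others up to 337) and Ankrd1 at 1423 CPM (others up to 772). Its Nos1 was 10.1 CPM, Tnc 15.1 CPM, Lum 63.7 CPM, Pdgfra 95.2 CPM, C4b 222 CPM, Ifit1 12.8 CPM and Cyp26b1 21.4 CPM, all the highest in TG. Ndufab1, at 98.4 CPM, was the lowest, where the other TG libraries had 121 to 140 CPM. Summed marker levels were highest there for atrial myocytes (704 CPM), macrophages (417 CPM), lymphocytes (21.6 CPM) and adipocytes (30.4 CPM). Of the atrial sum 472 CPM was Nppa, so the sum and Nppa are not separate findings. Among TG libraries, all 5 atrial markers were highest in replicate 4. Its score on the first principal component was -29.1.

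Among nTG libraries, replicate 2 had the highest Myh7 (2218 CPM, others up to 573), Vgll2 (4.87 CPM) and summed neutrophil markers (23.8 CPM). Replicate 6 had the highest Igf1 (19.1 CPM), and replicate 1 the highest Cyp26b1 (89.9 CPM, others up to 25.4).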

How the results depend on the processing

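The main comparison gave 1754 to 2579 called genes when single libraries were left out, the lowest without TG replicate 4, and 1682 of the 1754 were also called with all libraries. Replicate numbers were not a pairing: same-numbered TG and nTG libraries had deviations correlated at -0.26 to 0.20, 2 of 8 over 0.1, and 0 libraries correlated best with their own number. With the replicate block 1540 genes were called, of which 1429 were shared with the fit without it. Gene columns taken by their own names gave 0 calls, and a Tnnt2 log2 fold change of -0.35. The test of the difference from sedentary males called 13 genes with DESeq2 and 300 with limma voom, and 0 to 1 without single libraries, the 1 without TG replicate 2. The test of the difference from trained females called 1 gene with limma voom. Other alternatives for the main count lay between 2138 (only these 16 libraries fitted) and 2633 (limma voom). One of them, leaving out mitochondrially encoded genes (2401), was chosen after seeing the data. Genes called higher made up 40.5% of calls in the main fit. A separate fit, kept to genes with a mean of at least 50 counts, called 1152 higher and 1332 lower. Those higher were 46.4% of its calls. With columns by their own names set aside, where no gene kept its call, 111 of 143 called genes followed singly kept it under every other alternative, 17 lost it without TG replicate 4, 25 lost it with the replicate block, and 0 changed sign. With limma voom C4b, Cxcl10, Cyp26b1, Ifit3, Mx1, Neb and Poln lost their calls, and with only the 32 male libraries Alas2, Casq1, Cyp26b1, Hbb-bt, Ifit3 and mt-Nd5 did. Gsr, Lama4, Lamc1, Mmp2, Mtor and Tmod1 were among the 25 genes that lost their calls with the block. Of 49 lists, the count moved by over 1.5 times in 14 without TG replicate 4 and in 13 with the block. No alternative varied the depth.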

Other observations

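Further gene groups were counted in the same comparison, in which 5.65% of all genes were called higher and 8.31% lower. Of 30 antioxidant and NRF2 target genes, 4 rose and 5 fell. Hmox1, Gsr (glutathione reductase, 0.16 ± 0.05) and Nqo1 (a quinone reductase, 0.27 ± 0.08) were among those that rose, while the mitochondrial thioredoxin Txn2 (-0.26 ± 0.04) and the peroxiredoxin Prdx5 (-0.23 ± 0.05) fell. Nqo1 lost its call when any of 4 libraries was left out (edgeR adjusted p up to 0.0611), TG replicate 4 among them (0.25 ± 0.09, edgeR adjusted p = 0.0549). Without TG replicate 4, 3 members of the list rose and 3 fell.

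Of 25 genes of IGF1 and PI3K signalling, which drives physiological growth of the heart, 4 rose and 1 fell. Igfbp4, a binding protein of IGF1 (0.45 ± 0.12), and Pik3cg, the PI3K subunit of leukocytes (0.48 ± 0.12), rose, and Mtor, the kinase that couples growth signals to protein synthesis, fell (-0.16 ± 0.05). Of 35 muscle ubiquitin ligase and autophagy genes 7 fell and 1 rose, and 5 were called without TG replicate 4, without nTG replicate 5 or without TG replicate 7.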
